A study of Mus musculus with 4 samples.

Results

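The control-only regions within 10 kb of a transcription start site (TSS) are stretches of accessible chromatin that were called as a peak in both libraries of unstimulated macrophages and in neither library of macrophages given IL-4. Peaks of the 4 libraries on chromosomes 1 to 19, X and Y were joined wherever they shared 1 bp or more, which gave 60710 regions, and the highest peak of a region set its nearest gene and its distance to the TSS. Of 26272 regions within 10 kb of a TSS, 995 were control-only, which is 3.79%, and they lay at 964 genes. The mirror class, present in both IL-4 libraries and in neither control library, held 476 regions or 1.81% of the same 26272. Without the distance limit 2630 of the 60710 regions, 4.33%, were control-only, and 1635 of those lay beyond 10 kb. Members were therefore selected on presence and absence of peaks, and the peak counts and heights given for them are descriptions without a test.

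The data were ATAC-seq peak lists. ATAC-seq marks accessible DNA by letting a transposase cut into the chromatin of lysed cells. The cells were bone marrow-derived macrophages (BMDMs) of wild-type mice aged 8 to 12 weeks, on a C57BL/6 background, grown for 6 days in L929 supernatant, a source of the macrophage growth factor M-CSF. The control group held 2 libraries without cytokine and the IL-4 group 2 libraries of cells exposed to 20 ng/ml IL-4 for 1 h, so both groups shared genotype and culture, and one time point alone was compared. The labels do not say whether the libraries of a group came from separate animals.

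Accessible chromatin near a gene is where transcription factors and the transcription machinery gain access to DNA, and a region that closes is often a promoter or enhancer losing bound factors. IL-4 acts through a receptor with JAK kinases that activate STAT6, a factor that binds palindromic TTC and GAA sites and moves macrophages to the alternative, wound- and parasite-related state. In macrophages PU.1, C/EBP, AP-1 and RUNX factors occupy much of the accessible DNA outside promoters, while GC boxes and ETS sites are common in promoters.

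The sequences of 9 members are shown because they carry the features that the results turn on. Cd33 (chr7:43538613-43538821), Stmn1 (chr4:134460464-134460654) and Tlr13 (chrX:106134921-106135180) are among the members highest in both control libraries. Smarcd1 (chr15:99701986-99702221) is a promoter member. Il18 (chr9:50570269-50570473), Tlr2 (chr3:83844892-83845110) and Mcoln2 (chr3:146159464-146159655) hold AP-1 sites. Sfmbt1 (chr14:30716819-30717112) and 0610008F07Rik (chr2:163535051-163535346) are among the few with a STAT6 site. All are whole member regions read from the plus strand of GRCm38.p6, the assembly behind mm10, and capitals mark matches to the searched motifs.
Cd33: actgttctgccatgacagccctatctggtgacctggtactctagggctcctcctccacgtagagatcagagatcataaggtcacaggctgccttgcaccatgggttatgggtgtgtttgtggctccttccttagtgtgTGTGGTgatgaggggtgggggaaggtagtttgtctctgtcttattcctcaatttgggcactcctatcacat
Stmn1: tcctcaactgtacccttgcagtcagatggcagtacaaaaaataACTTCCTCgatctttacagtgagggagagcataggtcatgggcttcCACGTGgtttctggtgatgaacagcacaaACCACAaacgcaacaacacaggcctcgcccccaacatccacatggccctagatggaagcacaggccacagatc
Tlr13: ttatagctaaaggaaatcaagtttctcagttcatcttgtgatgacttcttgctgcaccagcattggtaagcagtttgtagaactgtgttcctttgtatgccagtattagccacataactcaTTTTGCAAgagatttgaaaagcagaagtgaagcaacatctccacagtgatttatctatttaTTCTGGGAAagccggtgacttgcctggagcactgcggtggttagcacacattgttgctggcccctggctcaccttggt
Smarcd1: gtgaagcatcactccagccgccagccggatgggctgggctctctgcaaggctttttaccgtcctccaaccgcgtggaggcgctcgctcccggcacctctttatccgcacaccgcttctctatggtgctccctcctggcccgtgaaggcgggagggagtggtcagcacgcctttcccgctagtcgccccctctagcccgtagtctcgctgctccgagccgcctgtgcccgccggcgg
Il18: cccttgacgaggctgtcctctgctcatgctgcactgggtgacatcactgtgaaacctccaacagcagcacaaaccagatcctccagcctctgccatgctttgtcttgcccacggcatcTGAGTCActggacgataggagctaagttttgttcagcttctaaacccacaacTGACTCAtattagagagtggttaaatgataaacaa
Tlr2: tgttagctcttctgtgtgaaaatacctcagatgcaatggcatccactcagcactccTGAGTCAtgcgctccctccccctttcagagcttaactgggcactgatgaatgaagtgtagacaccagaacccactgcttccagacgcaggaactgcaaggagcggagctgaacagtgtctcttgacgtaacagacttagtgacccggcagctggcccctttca
Mcoln2: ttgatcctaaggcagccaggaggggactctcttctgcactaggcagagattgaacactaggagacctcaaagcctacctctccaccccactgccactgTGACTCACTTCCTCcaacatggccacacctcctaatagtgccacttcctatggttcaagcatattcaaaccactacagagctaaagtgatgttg
Sfmbt1: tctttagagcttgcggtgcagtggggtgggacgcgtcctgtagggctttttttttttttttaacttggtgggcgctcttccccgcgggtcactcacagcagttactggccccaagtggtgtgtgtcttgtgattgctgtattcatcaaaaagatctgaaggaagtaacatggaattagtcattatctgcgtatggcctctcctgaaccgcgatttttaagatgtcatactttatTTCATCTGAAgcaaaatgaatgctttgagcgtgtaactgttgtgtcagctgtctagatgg
0610008F07Rik: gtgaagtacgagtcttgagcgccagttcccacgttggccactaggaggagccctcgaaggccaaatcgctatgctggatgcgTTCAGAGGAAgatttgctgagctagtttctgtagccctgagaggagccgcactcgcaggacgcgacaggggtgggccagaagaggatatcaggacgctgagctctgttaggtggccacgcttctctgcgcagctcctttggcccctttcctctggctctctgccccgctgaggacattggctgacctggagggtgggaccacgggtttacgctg
The capitals are TGTGGT, a RUNX site, in Cd33. In Stmn1 they are the PU.1 site GAGGAAGT, the E-box CACGTG and the RUNX site, with PU.1 and RUNX on the minus strand. Tlr13 held a C/EBP site (TTGCNNAA) and a STAT site of 3-base spacing (TTCNNNGAA). The Il18 region held the AP-1 site TGAGTCA on both strands, and in Mcoln2 an AP-1 and a PU.1 site overlapped in a single base. Sfmbt1 and 0610008F07Rik held TTCNNNNGAA, the spacing that STAT6 prefers, and no searched motif was found in the Smarcd1 region.

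The IL-4 2 library stood lowest in peak number and height. Control 1 and 2 held 45250 and 41885 peaks, and IL-4 1 and 2 held 41978 and 39462. Peak height is the −log10 q-value of the peak caller, so it grows with signal over background and with sequencing depth, and no read counts are in the files, so the depth of each library is unknown. Median heights were 8.04 and 7.46 in the control and 7.69 and 6.41 in the IL-4 libraries, and 603 peaks of IL-4 2 were under a height of 2, against 133 in control 1. The part of this difference in the members' absence from IL-4 2 was not tested. Of 12 macrophage marker genes 10, Cd68 and Itgam among them, had a region in all 4 libraries within 1 kb of the TSS. Csf1r had no peak there in any library, and Mertk had peaks in all 4 libraries but no single region in all 4. No region in all 4 libraries was found at 5 T cell, 5 B cell, 4 dendritic cell and 4 fibroblast genes. Among 5 neutrophil, 4 erythroid and 4 endothelial genes 1 each was found. Peaks outside such regions lay at the B cell gene Ebf1 in 4 libraries and at the dendritic cell genes Flt3 and Zbtb46 in 3. The fibroblast gene Pdgfra had a peak in 1 library.

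Control-only regions were low peaks. Their height in control 1 ran from 1.35 through a median of 5.14 to 16.77, and in control 2 from 1.61 through 4.64 to 16.68. These medians lay above 25.7% of all peaks of control 1 and 23.7% of all peaks of control 2. In the weaker of its control libraries a member had a median height of 4, against 3.73 for IL-4-only regions in their weaker IL-4 library and 10.5 for regions within 10 kb that were present in all 4 libraries, called shared below. The weaker height was under 3 for 193 members, both heights reached 5 for 241, and the weaker height reached 8 for 29. Height was greater in control 1 for 587 members and in control 2 for 407.

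The 12 members highest in their weaker control library lay at genes of varied function. Cd33, a sialic acid-binding inhibitory receptor of myeloid cells, had a region at −5557 bp of height 12.33 in control 1 and 14.43 in control 2. Atp6v1g3, which encodes a subunit of the vacuolar proton pump, had one at +1427 bp with 13.23 and 11.53. Bace1, the beta-secretase, had one at +8722 bp with 12.83 and 10.99. These 3 regions were named for their heights, and by the rule no member overlaps an IL-4 peak.
Tsg101, of the ESCRT-I sorting complex, took a region at −8537 bp that lies in intron 10 of the neighbouring Uevld, with heights of 10.03 and 10.14. Stmn1, which destabilises microtubules, had one at −7761 bp with 9.7 and 11.53. Tlr13, an endosomal sensor of bacterial ribosomal RNA, had one at −8225 bp with 10.62 and 9.12. The control libraries differed by less than 2 in each of these 3 regions. Cdc37, the kinase-specific partner of Hsp90, had a member in its intron 1 at +3004 bp with 11.84 and 9.06. Lilra5, a leukocyte immunoglobulin-like receptor, had one in intron 4 at +1461 bp with 9.97 and 8.97. BC025920 had one at +6613 bp with 8.89 and 9.25. The libraries disagreed more at Ggta1, an alpha-galactosyltransferase, where the region at −2181 bp reached 8.93 in control 1 and 15.99 in control 2. The highest peak of all members in control 1 was at Esyt3 with 16.77, where control 2 had 7.64, and the highest in control 2 was at Psma7 with 16.68, where control 1 had 8.73. Esyt3 was named after its values were seen.

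**Figure D1:**
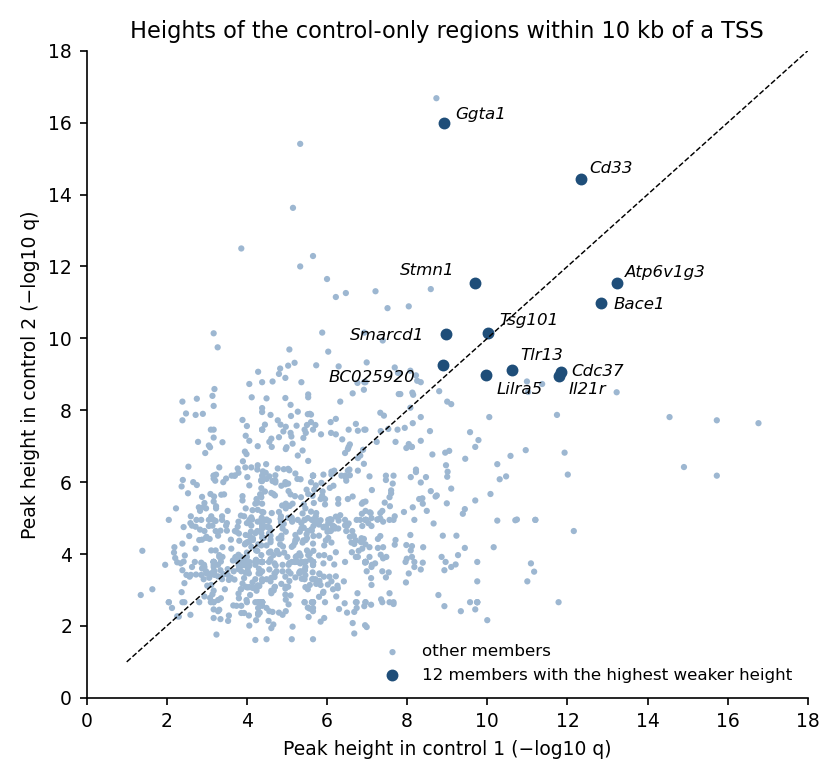
Height (−log10 q) of the 995 control-only regions within 10 kb of a TSS in control 1 (x axis) and control 2 (y axis), each point a region, with the 12 members highest in their weaker library labelled and the line of equal height dashed. Most regions sit near the medians of 5.14 and 4.64, and Cd33 stands highest in its weaker library.

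Absence from the IL-4 libraries went with low height in the control libraries. Of 16216 regions within 10 kb found in both control libraries, 6.14% lacked a peak in both IL-4 libraries, and of 14628 found in both IL-4 libraries, 3.25% lacked both control peaks. Where the weaker control height was under 3, 193 of 681 regions were control-only, which is 28.3%. The share was 22% at heights of 3 to 4, 15.4% at 4 to 5, 8.47% at 5 to 6 and 4.06% at 6 to 8. It was 1.43% at 8 to 10 and 4 of 3224 regions, 0.124%, at 10 to 15. Among 3756 regions of height 15 or more none was control-only, for which the Wilson 95% interval reaches 0.102%. In the mirror direction the shares were lower in each bin under 10, from 15.1% under 3 to 0.181% at 8 to 10, and 0.327% at 10 to 15. The part of signal strength and depth in these shares was not tested. The intervals here and below cover counting error only, and regions of one library are not replicates.

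**Figure D2:**
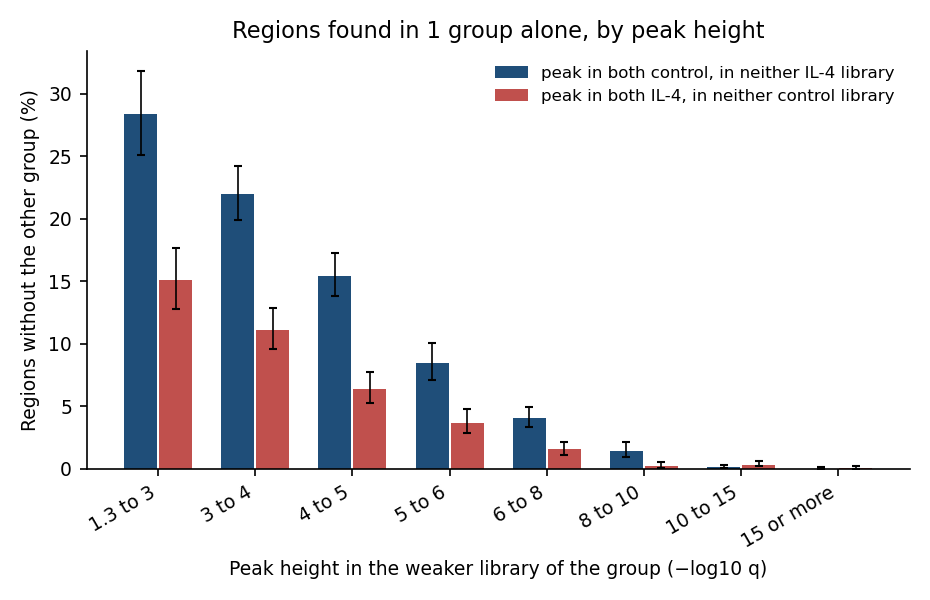
Share (%) of regions within 10 kb that were found in both libraries of a group and in neither of the other group, by height in the weaker library (−log10 q), for control (blue) and IL-4 (red), with Wilson 95% intervals as error bars. The control bars run from 28.3% under height 3 down to 0 at 15 or more.

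The class was sensitive to its cut-offs. A further 2143 regions within 10 kb had a peak in both control libraries and in a single IL-4 library, 1540 of them in IL-4 1 and 603 in IL-4 2. The IL-4 peaks of these regions ran from 1.35 through a median of 5.23 to 18.95, and their weaker control height had a median of 4.65, against 4 in the members. With control 1 left out 2622 regions met the rule, with control 2 left out 3301, with IL-4 1 left out 2581 and with IL-4 2 left out 1612. Each of these counts exceeds 995 because fewer libraries then have to be met. At the distance limit Chd2, at +9988 bp with 5.8 and 3.96, and Hes7, at −9970 bp with 3.74 and 2.56, were just inside. Rufy3, at −10028 bp with 4.89 and 7.56, and 4930567K20Rik, at −10039 bp with 4.87 and 4.98, were just outside.

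By position the members were spread over introns, intergenic DNA and promoters. Introns held 386 of them (38.8%), intergenic DNA 283 (28.4%) and the promoter-TSS class 232 (23.3%, 95% interval 20.8 to 26.0). The promoter share was 25% in IL-4-only regions and 60.6% in shared regions within 10 kb. Other members lay at transcription end sites (31), in exons (28), in 5′ UTRs (15), in 3′ UTRs (10) and in non-coding genes (10). Of the intronic members 282 lay in the first intron, and 62 of 383 with a named host gene lay in an intron of another gene than the one with the nearest TSS. Upstream positions made up 49.0% of members and 59.8% of shared regions.

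Few members sat on the TSS itself. Of the 995, 120 (12.1%) lay within 100 bp of a TSS and 343 (34.5%) within 1 kb, against 40.0% and 69.7% of shared regions within 10 kb. The IL-4-only regions had 40.5% within 1 kb. A further 346 members lay at 1 to 5 kb and 306 beyond 5 kb, and the median distance was 2477 bp. At matched height the share of doubly detected control regions that were control-only also changed with distance. At weaker heights of 3 to 5 it was 9.20% within 100 bp of a TSS (68 of 739), 27.9% at 2 to 5 kb (130 of 466) and 23.2% at 5 to 10 kb. The mirror shares were 3.52%, 13.0% and 10.2%.

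**Figure D3:**
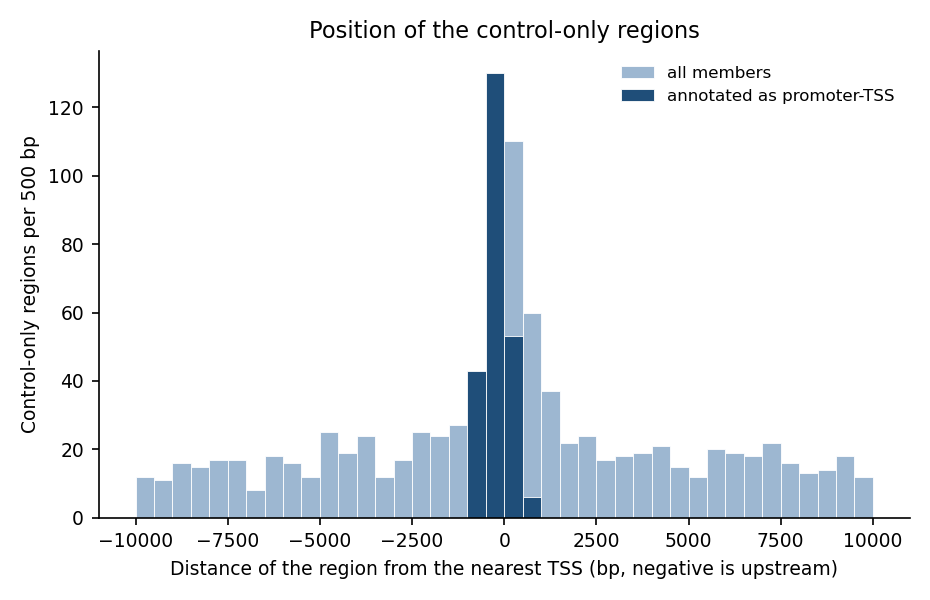
Number of control-only regions per 500 bp (y axis) by distance from the nearest TSS (x axis, bp, negative is upstream), with those annotated as promoter-TSS in dark blue. The counts peak at the TSS, where 120 members lie within 100 bp, and are lower beyond 1 kb on either side.

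The members were short. Their length had a median of 179 bp, with the middle part of the range from 151 to 214 bp, against 180 bp in IL-4-only and 370 bp in shared regions. GC content of the central 200 bp had a median of 52% in members, 51.2% in IL-4-only and 61.5% in shared regions. Members within 1 kb of a TSS had 60.5% and those at 1 to 10 kb 49.5%, against 65.5% and 51% in shared regions of the same distances. A long terminal repeat was named by the annotation of 60 members (6.03%), 5.46% of IL-4-only regions, 2.16% of shared regions and 10.9% of control-only regions beyond 10 kb. A CpG island was named for 42 members. The gene was protein-coding for 923 members. An IL-4 peak lay within 100 bp of 76 members (7.64%) and within 1 kb of 364 (36.6%), in 1 or both IL-4 libraries. In the mirror class a control peak lay within 100 bp of 12.8% of IL-4-only regions and within 1 kb of 42.9%. A shared region lay within 500 bp of 190 members (19.1%), and the median distance to the nearest shared region was 5529 bp. For IL-4-only regions these values were 22.9% and 5435.5 bp. For 427 members (42.9%) the gene had a shared region within 500 bp of its TSS, among them 352 of the 754 members that lay more than 500 bp from the TSS. No such share is given for the other classes.

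The 5 highest promoter members lay at Il21r, Smarcd1, Fam133b, Coq4 and Nf1. Il21r, whose receptor chain pairs with the common gamma chain that the IL-4 receptor also uses, had a region at +95 bp with heights of 11.78 and 8.96. Smarcd1, a subunit of the BAF chromatin remodeller, had one at −221 bp with 8.96 and 10.13. Nf1, which switches off Ras, had one at −270 bp with 8.04 and 10.89. Fam133b had one at +54 bp with 10.99 and 8.8, and Coq4, of coenzyme Q synthesis, one at −24 bp with 11.37 and 8.73. All 5 reached at least 8 in both control libraries, which 29 of the 995 members did, and Nf1 was the lowest of the 5 in its weaker library.

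DNA motifs were searched on both strands in the central 200 bp of each region, a window that is longer than most members. A match describes letters, not a bound factor, and its absence says nothing about the factor. STAT6 sites (TTCNNNNGAA) were in 23 members, 2.31% (95% interval 1.55 to 3.44). The share was 23.7% (20.1 to 27.8) in IL-4-only regions, 3.61% in shared regions and 4.69% in all regions within 10 kb. STAT sites of 3-base spacing (TTCNNNGAA) were in 4.22% of members, 10.1% of IL-4-only regions, 4.27% of shared and 4.77% of all. Control-only regions beyond 10 kb had 2.26% and 3.98%, so control-only regions near and far from genes had about the same STAT shares. Within 1 kb of a TSS, 2.04% of members (0.992 to 4.15) and 2.62% of shared regions (2.31 to 2.97) had a STAT6 site. At 1 to 10 kb from a TSS, 2.45% of members and 5.88% of shared regions had a STAT6 site. With a weaker control height of 3 to 5, 7 of 371 such members had one (1.89%, 0.917 to 3.84), against 51 of 606 shared regions (8.42%, 6.46 to 10.9). Shared regions had to have a peak in both IL-4 libraries and members had to lack one. These contrasts rest on values that the rule used and are descriptions.

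Of the members with a STAT6 site, Sfmbt1, a chromatin-binding repressor of the Polycomb group, was highest with 9.78 and 7.17 at +1350 bp. Spink13 followed at −1946 bp with 8.34 and 7.15, and 0610008F07Rik was the third at +6610 bp with 8.04 and 7.06. The sites of the printed Sfmbt1 and 0610008F07Rik sequences are spaced as STAT6 prefers, and both regions lie in a first intron.

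RUNX sites were the commonest motif of members, followed by the GC box, AP-1 and C/EBP sites. The RUNX site TGTGGT was in 209 members, 21.0% (18.6 to 23.6), against 11.9% of shared, 15.8% of IL-4-only and 13.9% of all regions within 10 kb. The AP-1 site TGAGTCA was in 169 members, 17.0% (14.8 to 19.4), against 9.52%, 12.0% and 10.4%. The C/EBP site was in 131 members, 13.2%, against 7.18%, 9.03% and 8.12%. These shares differed with distance to the TSS. Within 1 kb AP-1 was in 7.29% of members and 3.52% of shared regions, and at 1 to 10 kb in 22.1% and 23.3%, and among regions of weaker height 3 to 5 at 1 to 10 kb in 18.1% of members and 16.8% of shared regions. For RUNX the shares were 14% and 7.75% within 1 kb and 24.7% and 21.3% at 1 to 10 kb. For C/EBP they were 9.33% and 4.63%, then 15.2% and 13.1%. Control-only regions beyond 10 kb had AP-1 in 26.2%, RUNX in 24.0% and C/EBP in 15%.

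The PU.1 site GAGGAAGT was in 74 members, 7.44%, against 5.80% of shared, 7.77% of IL-4-only and 6.37% of all regions. Within 1 kb the PU.1 site was in 4.96% of members and 3.08% of shared regions, and at 1 to 10 kb in 8.74% and 12.1%. Among regions of weaker height 3 to 5 at 1 to 10 kb it was in 8.63% of members and 10.2% of shared regions. The ETS site CCGGAAGT, which shares its last bases with the PU.1 site, was in 1.71% of members, 4.95% of shared and 3.24% of all regions. The GC box GGGCGG was in 182 members, 18.3% (16.0 to 20.8), against 47.4% of shared, 24.2% of IL-4-only and 36% of all regions. Within 1 kb the GC box was in 37.0% of members and 61.5% of shared regions. The CRE TGACGTCA was in 0.905% of members against 1.48% of all regions, the E-box in 4.32% against 5.90%, and the interferon-response element GAAANNGAAA in 2.11% against 2.43%. The NF-kB and CTCF motifs were each in 2.81% of members, against 3.41% and 1.98% of all regions. None of the 13 motifs was found in 308 members, and AP-1 and PU.1 together in 8.

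**Figure D4:**
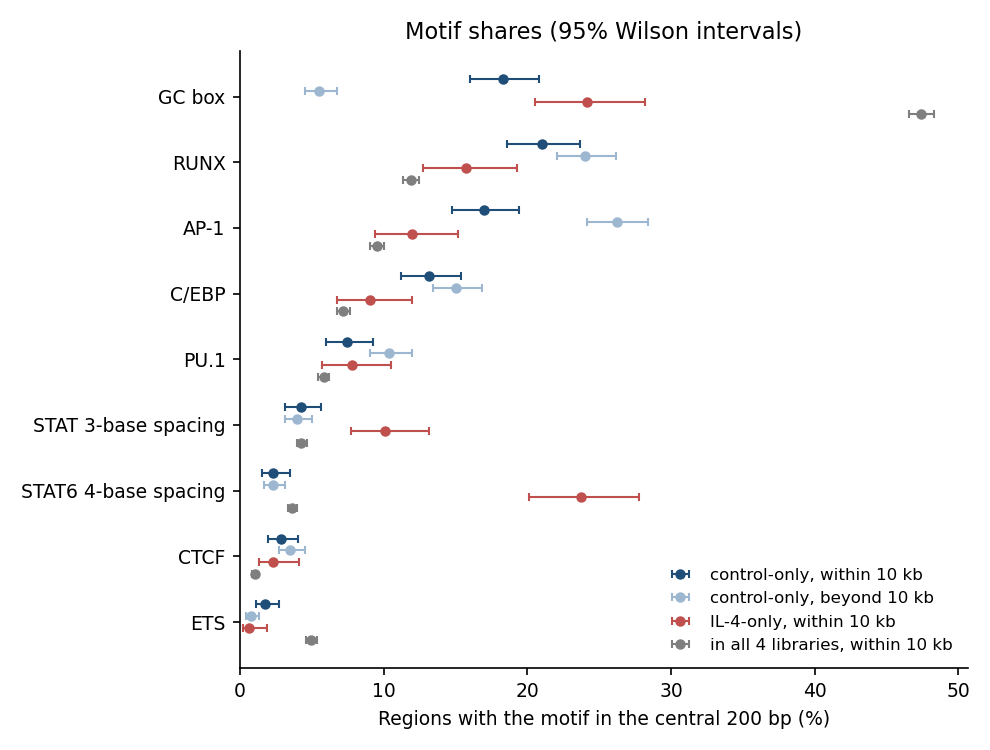
Share (%) of regions with each of 9 motifs in the central 200 bp, with Wilson 95% intervals, for control-only regions within 10 kb (dark blue) and beyond (light blue), IL-4-only regions (red) and regions in all 4 libraries (grey) within 10 kb. The STAT6 share is 2.31% in control-only and 23.7% in IL-4-only regions, and the GC box share is 18.3% and 47.4% in control-only and shared regions.

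The AP-1 members with the highest weaker height were BC025920, Psma7, which encodes a proteasome subunit, and 4931406H21Rik. The highest PU.1 members were Bace1, Stmn1 and Gm10485. The printed Il18 and Tlr2 sequences show AP-1 sites in intron 1 of Il18 and upstream of Tlr2, both genes of innate immunity, and the Mcoln2 sequence shows an AP-1 and a PU.1 site in the first intron of a lysosomal channel gene.

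Genes of the IL-4 signalling path were among the nearest genes of 6 members. The list of IL-4 receptor, JAK and STAT genes had 100 regions within 10 kb, so its share was 6%, against 3.79% of all regions. Pik3cd, the delta catalytic subunit of PI 3-kinase, had 2 of them, at +8 bp with heights of 6.18 and 6.32 and at −1836 bp with 4.38 and 4.95. These distances are from different TSSs of the gene, as the regions start at chr4:149701568 and chr4:149665098. Akt2, a kinase downstream of PI 3-kinase, had a region at −1031 bp with 12.16 in control 1 and 4.64 in control 2. Il2rg, the common gamma chain, had one at −61 bp with 5.36 and 3.78. Jak3, its partner kinase, had one at +286 bp with 2.75 and 8.32, and Socs3, an inhibitor of JAK signalling, one at −5599 bp with 5.73 and 3.17. Apart from Pik3cd, these heights differed between the control libraries by more than 1. The alternative activation list had 2 members of 70 regions (2.86%). They were Mrc1, the mannose receptor, at +4733 bp with 4.27 and 3.13, and Klf4, a transcription factor of alternative activation, at −8861 bp with 6.68 and 1.79.

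The genes that the study names as repressed had 3 members of 37 regions (8.11%, against 3.79% of all regions). The list also held 1 IL-4-only region, at Il1b (2.70%, against 1.81% of all regions). This list is not independent evidence because the study drew it from its own macrophage data. Tlr2, the receptor for bacterial lipoproteins, had a region at −3342 bp with 7.42 and 7.85, and a shared region lay 48 bp from it. Il18, an inflammasome-dependent cytokine, had a region in intron 1 at +4989 bp with 6.96 and 8.78. Lyz2, lysozyme, had one at +5437 bp with 4.11 and 5.02.

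Pattern recognition genes had 10 members of 232 regions (4.31%, near the 3.79% of all regions), at receptors and at their adaptors. Beside Tlr13 and Tlr2 the receptors were Tlr7, a sensor of single-stranded RNA, at −12 bp with 5.6 and 6, and Nod2, a sensor of muramyl dipeptide, at +8256 bp with 5.46 and 5.27. Ddx58, the RNA sensor RIG-I, had a member at −8 bp with 4.86 and 3.17, and Nlrc4, of the flagellin inflammasome, at −97 bp with 3.89 and 5.61. Downstream, Myd88, the adaptor of most Toll-like receptors, had one at +11 bp with 7.11 and 5. Irak3, a negative regulator of that path, had one at −814 bp with 5.27 and 7.96. Tbk1, the kinase of the interferon response, had one at +3538 bp with 8.22 and 6.28, and Ly86, a partner of an LPS receptor homologue, one at +2673 bp with 2.35 and 3.74. Of these 10, 5 lay within 1 kb of the TSS.

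Cytokine genes had 8 members of 153 regions (5.23%). The share of all regions, to be set beside each list here, was 3.79%. Ccl6 at −7725 bp (4.01 and 6.14) was the next highest after Il18. The others were at Inhba, Csf3, Spp1, Il12b, Cxcl3 and Cxcl14. Receptors had 11 of 226 (4.87%), led by Il21r and by Il27ra, the IL-27 receptor chain, at +9601 bp with 9 and 6.15. Surface and phagocytic genes had 21 of 317 (6.62%), and their IL-4-only share was 1.89%, against 1.81% of all regions. After Cd33 the highest was Cd48, an immune adhesion receptor, at −8990 bp with 8.34 and 8.78. The list also held the integrin genes Itgam, Itgax, Itgal, Itgb1, Itgb2 and Itgb7.

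Transcription factors of macrophages had 19 members of 388 regions (4.90%, against 3.79% of all regions). The IL-4-only share was 3.87% in this list, 3.92% in the cytokine list and 3.10% in the receptor list, against 1.81% of all regions. It was lower in the pattern recognition list (1.72%) and among chromatin regulators (0.463%). Smad7, the inhibitory SMAD of TGF-beta signalling, had 2 members. One lay at −3418 bp with 10.05 and 7.81, and the other at −3972 bp with 6.47 and 6.13. Srf, which drives actin and early response genes, had one at +3223 bp with 7.94 and 7.51, and Rara, a retinoic acid receptor, 2. The Rara regions lay at +2246 bp with 8.95 and 6.82 and at +8783 bp with 6.67 and 4.5. Chromatin regulators had 11 members of 216 regions (5.09%). Kdm1a, a histone demethylase, had one at +4096 bp with 6.38 and 7.19, second to Smarcd1 in the list.

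Kinases and phosphatases had 13 members of 268 regions (4.85%, against 3.79% of all regions). The highest were Pik3ap1, an adaptor for PI 3-kinase, at +2111 bp with 6.52 and 6.32, and Map3k5, a stress-activated kinase, at +6841 bp with 5.39 and 6.88. Lipid and cholesterol genes had 7 of 192 (3.65%), with Npc1, which exports cholesterol from lysosomes, at −711 bp (9.44 and 5.25) and Acsl1, an acyl-CoA synthetase, at +615 bp (4.48 and 6.5). Lysosomal and matrix genes had 6 of 194 (3.09%), with Mcoln2 at +9386 bp (5.11 and 7.27). Ctsk, the protease cathepsin K, took a region at −4791 bp that lies in an exon of Arnt (4.97 and 5.27).
Of 7 gene families taken by symbol, the microRNAs alone lay above the background of 3.79%, and only slightly. Solute carriers had 16 of 525 regions (3.05%), zinc fingers 17 of 519 (3.28%), small GTPase regulators 17 of 512 (3.32%), ubiquitin and tripartite genes 15 of 400 (3.75%) and microRNAs 11 of 241 (4.56%). Ribosomal protein genes had 2 of 125 (1.6%), and predicted genes 69 of 2138 (3.23%). The IL-4-only share of the microRNAs was also slightly above that of all regions (2.07% against 1.81%).

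Most member genes, 935 of 964, had a single control-only region and 29 had more. The highest by summed weaker height were Smad7, Gm10485, Rara, Arhgef2, Fcgr4 and Ninj1. Gm10485 had regions at +341 bp with 8.34 and 7.81 and at +7518 bp with 7.98 and 4.25. Arhgef2 had them at +3809 bp with 7.83 and 8.45 and at −8574 bp with 3.97 and 3.48. Fcgr4, an activating IgG receptor, had them on either side of its TSS, at +849 bp with 6.99 and 9.33 and at −930 bp with 7.06 and 4.19. Abcc1 and Hdac7 had 3 each and were named after the counts were seen. Hdac7, a histone deacetylase, had regions at −1964 bp (3.89 and 5.49), +7614 bp (2.92 and 5.31) and −5063 bp (3.86 and 2.56). Abcc1, an efflux pump, had them at −8746 bp (6.1 and 4.66), −455 bp (2.73 and 3.43) and +4107 bp (2.37 and 5.88).

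At 37 genes a control-only and an IL-4-only region both lay within 10 kb of a TSS, though not always of the same one. These are 3.84% of the 964 member genes and 7.97% of the 464 genes of IL-4-only regions. Of all 13504 genes with a region within 10 kb, 3.44% had an IL-4-only and 7.14% a control-only region, so both shares of the overlap lay near the background. The 4 genes described here beside Pik3cd were named after their values were seen. At Itgax, an integrin chain, the control-only region lay at +4240 bp with 6.15 and 3.02, and the IL-4-only region at +7654 bp with 11.03 and 6.21. Pik3cd had its IL-4-only region at +880 bp with 7.97 and 4.06. That region starts at chr4:149662264, far from the member at +8 bp of another TSS, which starts at chr4:149701568. At Csk, an inhibitor of Src kinases, the control-only region at −5632 bp had 5.27 and 6.74, and the IL-4-only region at −7262 bp 3.05 and 4.13. Rfc4, of the clamp loader of replication, had 13.23 and 8.5 at −9023 bp in control and 7.39 and 5.05 at −8283 bp with IL-4. At Stxbp6 the regions at +89 bp (6.28 and 5.4) and +277 bp (8.24 and 3.85) were 24 bp apart.

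Shared regions near the same genes could be compared in height between the groups. Heights were put on a log2 scale, brought to the same distribution in each library by quantile normalisation, so that a log2 change need not equal the ratio of the printed heights, and fitted with limma over all 25442 shared regions. The at member genes are a description because the same contrast chose the members. Within 10 kb of 572 member genes lay 825 shared regions, with a median log2 change of 0.06 for IL-4 against control (0.06 and 0.04 in the pairs of equal replicate number). Over all shared regions within 10 kb the median was 0.02. At an unadjusted limma p under 0.05, 28 of the 825 were lower (3.39%) and 29 higher (3.52%). These shares were 2.94% and 3.28% over all shared regions within 10 kb, and 4.15% and 4.12% over all shared regions at any distance. At an adjusted p under 0.05, 0 of the 825 were lower and 1 was higher, against 2 regions (0.00786%) and 4 regions (0.0157%) of all 25442. With control 1 left out the median log2 change of the 825 was 0.03, against −0.01 over all shared regions. With 2 libraries a group an exact permutation test cannot give a p below 0.333. At member genes, 443 shared regions within 500 bp of a TSS had a median of 0.10, against 0.04 for all 8313 such regions, and 382 farther ones −0.01, against −0.03.

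Near the named members the height changes of shared regions had both signs. At Cd33 the region at −41 bp had 16.68 and 16.95 in control and 8.19 and 6.99 with IL-4, a log2 change of −0.91 (limma, unadjusted p = 0.0307, adjusted p = 0.555). The Cd33 region at +2548 bp had 6.03 and 6.99 in control and 15.55 and 15.47 with IL-4, a log2 change of 1.49 (limma, unadjusted p = 0.0016, adjusted p = 0.270). In neither did the groups overlap, and neither passed the adjusted threshold. At Il21r the region at −1492 bp had 12.39 and 7.67 in control and 5 and 5.3 with IL-4 (−0.70, limma adjusted p = 0.774), and at −9374 bp 19.04 and 14.95 against 15.65 and 14.42, where the groups overlapped. The Tlr13 region at −90 bp had 5.71 and 5.09 against 3.67 and 3.43, with no overlap, and at −7200 bp 7.46 and 5.29 against 6.06 and 4.74. For Tlr2 the region at −3762 bp had 15.71 and 16.67 against 15.59 and 11.34, and the one at +1949 bp 9.71 and 9.69 against 14.14 and 7.22. The Smarcd1 region at +212 bp had 5.33 and 5.49 against 7.99 and 2.62, so the IL-4 libraries lay on either side of control.

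**Figure D5:**
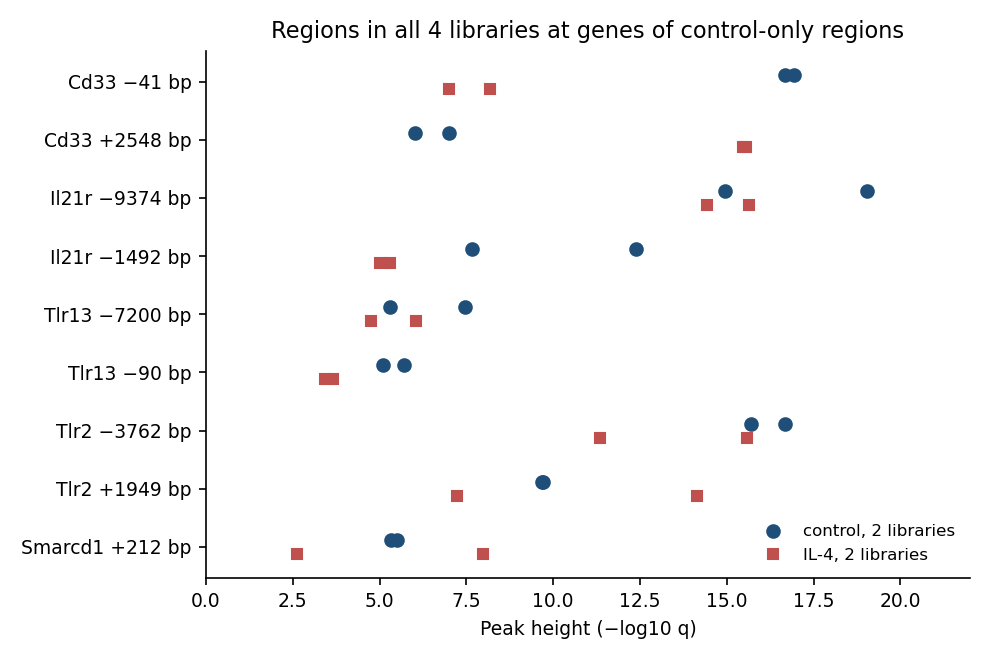
Height (−log10 q) of regions present in all 4 libraries at 5 genes with a control-only region, by position from the TSS, with a point for each control (blue) and IL-4 (red) library. At Cd33 the region at −41 bp lies at 16.68 and 16.95 in control and 8.19 and 6.99 with IL-4, and the one at +2548 bp the other way round.

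The single neighbour that passed the adjusted threshold was at Sptbn1, a spectrin, at −5029 bp. It rose from 10.44 and 8.97 to 33.53 and 23.7, a log2 change of 1.73 (limma adjusted p = 0.0300). With IL-4 1 or with IL-4 2 left out, or without a variance trend in the limma fit, 0 neighbours passed in this direction. The other neighbours with the most positive changes were at Fth1, the ferritin heavy chain, at −2056 bp and Mettl8 at −8746 bp. Fth1 had 4.55 and 2.66 in control and 8.23 and 13.23 with IL-4 (log2 1.76), and Mettl8 5.65 and 4.95 in control and 19.84 and 11.36 with IL-4 (1.72). The most negative were at Parvg, Nfe2l1 and Usp3. Parvg, a link of integrins to actin, had 13.34 and 6.74 at −2936 bp in control and 2.26 and 3.22 with IL-4 (−1.66, limma adjusted p = 0.361). Nfe2l1, a stress response factor, had 21.8 and 16.99 at −7564 bp in control and 10.74 and 3.73 with IL-4 (−1.38). Usp3, a deubiquitinase, had 25.79 and 21.23 at −6811 bp in control and 13.18 and 4.69 with IL-4 (−1.38). These regions were picked for the size of their change, so the lack of overlap between the groups follows from the choice. The limma adjusted p was 0.280 at Fth1, 0.222 at Mettl8, 0.292 at Nfe2l1 and 0.228 at Usp3.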

How the data were processed

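ATAC-seq peaks of 2 control and 2 IL-4 libraries of mouse BMDMs were analysed. The authors aligned reads to mm10 (BWA 0.7.10, SAMtools 0.1.19), called peaks in each library on its own with MACS2 2.0.10 without pooling replicates, removed blacklisted regions and annotated peaks with HOMER 4.2. These versions come from the submitters' processing notes. The deposited peak score was read as the −log10 q-value, since this is what MACS2 writes. The methods name a q-value limit of 0.01, a score of 2, yet each file holds peaks from about 1.3 upward, with 133 to 603 peaks under 2.

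Regions were built as stated in the report (Python 3.11.15, pandas 2.3.3, with regions also checked against bedtools 2.31.1). Motifs and sequences were read from GRCm38.p6 in the central 200 bp. Shares carry Wilson 95% intervals. Heights of regions in all 4 libraries were compared with limma 3.58.1 in R 4.3.3 on quantile-normalised log2 heights with Benjamini-Hochberg adjustment over 25442 regions and no covariate. The scripts were tested on simulated data with planted changes. Same-numbered replicates were not treated as pairs: the correlation of their deviations was 0.00677 and no label says that they share a batch.

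The members, the gene lists and the markers were chosen with earlier results of these data known. Named were the 12 members highest in their weaker control library, the 2 highest of each gene list, the 5 highest promoter members, 6 genes with 2 or more members, the 3 highest members with a STAT6, AP-1 or PU.1 motif, the regions nearest the distance limit, and the neighbours with the 3 lowest and 3 highest changes or an adjusted p under 0.05. Other named genes of a list illustrate its count. Genes were matched by symbol, 16 of them by an older symbol of the RefSeq table. The alternatives were leaving out each library, score and overlap limits, the distance limit, the motif window, normalisation, the variance trend of limma and a replicate block. The counts of lower neighbours in limma fits without each library were chosen after seeing the data.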

Additional observations from a re-analysis of the deposited data

How the results depend on the processing

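The count of 995 control-only regions within 10 kb ran from 1612 to 3301 with 1 library left out, and changed to 631 when an IL-4 peak within 1000 bp removed a region, to 3138 when a peak in 1 IL-4 library was tolerated and to 343 within 1000 bp of a TSS. These follow from the construction of the rule. It was 998 with peaks of score 2 or more, 1064 when peaks had to overlap by 50%, 735 when peaks within 500 bp were merged and 689 within 5 kb. With peaks above the pooled median score of 7.37 it was 673, of which 48 members were overlapped, so the members are nearly all others. Leaving out 1 library gave promoter shares of 22.2% to 29.4%, intron shares of 39.1% to 43.0%, shares within 1 kb of 38.1% to 44.1% and upstream shares of 43.8% to 47.5%. It gave AP-1 shares of 13.2% to 16.0%, C/EBP of 10.3% to 11.5%, GC box of 19.4% to 25.7%, PU.1 of 6.14% to 7.94%, RUNX of 17.2% to 20.0%, STAT of 3-base spacing of 4.03% to 4.49% and STAT6 of 2.11% to 2.94%. Above the median score the promoter share was 37.9%, intron 33.7%, within 1 kb 46.2%, upstream 52.9%, GC box 31.4% and RUNX 16.9%. Without regions near an IL-4 peak the promoter share was 16.2%, within 1 kb 19.8%, AP-1 19.8%, GC box 14.4% and STAT of 3-base spacing 3.01%. In 500 bp the shares were 21.7% for AP-1, 23.8% for C/EBP, 28.8% for the GC box, 9.85% for PU.1, 36.5% for RUNX, 11.1% for STAT of 3-base spacing and 8.74% for STAT6.

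The median log2 change at member genes, 0.056, was 0.025 to 0.055 with 1 library left out. It was 0.085 under median centring (0.030 over all shared regions), −0.0047 at any distance and 0.025 for the nearest shared region. Of the 825 neighbours 370 had a log2 change below 0. Only those with an unadjusted limma p under 0.05 are counted as lower here, 28 of the 825 (3.39%). The 28 neighbours with a lower height were 16 to 31 with 1 library left out and 86 at any distance. The 86 were 4.94% of the 1741 shared regions of member genes at any distance, against 4.15% of all shared regions. With the replicate number as a block the median within 10 kb was 0.056 and the count 28. The causes of these moves were not tested. Of 116 alternative values 49 moved and 67 stayed within the limits set for them, which were not alike. Shares had to stay inside the Wilson interval of the main share. The median log2 change had to stay within 0.0139, the standard deviation of its medians in the pairs of equal replicate number. Counts had a wide limit by ratio, under which 673 and 689 regions passed as unmoved beside 995. Depth is unknown, so the absence of a peak is the absence of a call at the depth of that library.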
